A study of Mus musculus with 4 samples.

Results

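The cluster that the study named Plasma cell was described by the 204 genes listed for it in the table that set each of 21 named cell types against all other cells. These genes were 12.2% of the 1679 different genes listed for at least 1 cell type, and they made up 204 of 4422 pairs of a gene and a cell type. Membership followed the study's own annotation. By length the list ranked 7 among the 21 types, whose lists ran from 28 to 513 genes. The cells of the cluster were 0.542% ± 0.00889 (standard error of the fit over 1045 genes) of all cells, which placed the cluster at rank 20 of 21, above MMP_LMPP (0.387%) alone.

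The cells came from wild-type BALB/c mice, 8 weeks of age, that received an intraperitoneal injection on each of 5 days, of PBS or of 0.5 µg recombinant IL-33 (rIL-33). Each of the 4 libraries was a group of its own (PBS liver, PBS lung, rIL-33 liver and rIL-33 lung), made from tissue pooled over several mice. Cells were sorted for group 2 innate lymphoid cells (ILC2s), lymphocytes that respond to IL-33 without an antigen receptor, through a gate that was CD127+, Thy1+ and ST2+ and negative for CD3e, Ly6G, Ly6c, CD11b, CD45R, TER119 and TCRb. CD45R is a protein form carried by most mouse B cells, so the gate was set to leave such cells out. The tables pooled the 4 libraries and held no value per library, no number of cells and no depth, so liver and lung, or rIL-33 and PBS, were not compared here.

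B cells recognise antigen through a membrane immunoglobulin that signals with CD79A and CD79B, and a mature B cell that has not met antigen carries IgM and IgD together. They also take up antigen and present its peptides on MHC class II molecules. When a B cell becomes a plasma cell it enlarges its secretory apparatus, releases antibody, and switches off much of the B cell programme. PAX5 and EBF1 hold the B cell programme, whereas BLIMP-1 (*Prdm1*), IRF4 and XBP1 drive the plasma cell programme, and syndecan-1 (*Sdc1*) marks the plasma cell surface.

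The value given for each gene is the percentage of cells in which its value exceeded 0, in the cluster and then in all other cells, and a difference is given in percentage points. A share in a single type is known only where that type listed the gene. A highest share is therefore the highest among the types that listed it. The cluster was formed from these genes in these cells, so every comparison with the remaining cells is a description and no test was made. The matrix behind the table was not named, and a value above 0 is not the same as a detected transcript. *Cd3e*, a T cell receptor component used in the negative gate, was above 0 in 83.5% of all cells, and *Ighm* was above 0 in 65.0% of the cells outside the cluster.

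The name of the cluster was checked against marker genes of B cells and of plasma cells. All 9 B cell markers reported here (*Cd79a*, *Cd79b*, *Ms4a1*, *Pax5*, *Ebf1*, *Cd74*, *H2-Aa*, *Ighd* and *Ighm*) were listed, and each was above 0 in at least 80% of the cluster. Of 8 plasma cell markers, *Mzb1*, *Xbp1* and *Irf4* were listed, *Sdc1* and *Prdm1* were listed for other cell types only, and *Jchain*, *Derl3* and *Tnfrsf17* were in no listing of the table. *Irf4* was above 0 in a smaller share of the cluster than of the other cells. It was still listed with a higher average in the cluster, since every listing had a log2 fold change of at least 0.25. By these markers the list held genes of B cells that carry IgM, IgD and MHC class II, and 3 of the 5 plasma cell markers that the table contained, beside 12.2% of all genes. The remaining 3 plasma cell markers may not have been among the features tested. The cluster is called here by the study's name, and a B cell or plasma cell identity was not assigned to single cells.

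Longer lists were counted as well. Of 72 genes in 3 lists for the B lineage (immunoglobulin chains, receptor and surface proteins, and transcription factors with signalling proteins), 48 were in the table and 46 of these (95.8%) were listed for the cluster, beside 12.2% of all genes in the table. The lists were drawn up with earlier results of these data known and include genes, such as *Napsa* and *Ms4a4c*, that are not specific to B cells, so the count is a description and not independent support for an identity. The median difference over the 46 genes was 43.1 points, beside 21.4 points over all 204 genes of the cluster and 18.4 points over all 4422 pairs. Of 71 genes in 2 lists for plasma cells (identity and secretory apparatus), 26 were in the table and 9 of these (34.6%) were listed, with a median difference of 23.4 points. The plasma cell share was also above the 12.2% of all genes. Most of those 9 genes are expressed by B cells or by many secreting cells as well, and whether this bears on the share was not tested. *Pou2af1* was counted both among the 9 genes and among the 46.

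All 6 immunoglobulin genes in the table were listed for the cluster, beside 12.2% of all genes. Their median difference was 61.3 points, beside 21.4 points over the 204 genes. *Igkc* (chr6:70726435-70726966, plus strand, build GRCm38), the constant region of the kappa light chain, was above 0 in 100% of the cluster and in 20.9% of the other cells. *Iglc2*, a lambda light chain constant region, was above 0 in 91.8% and 9.3%. *Iglc3* stood at 92.4% and 18.8%, and *Iglc1* at 53.5% and 9.7%. The 3 lambda genes lie within 138.7 kb on chr16 and have similar sequences, and the values do not show how reads were assigned among them. The kappa and the lambda constant regions were thus each above 0 in most cells of the cluster, although a single B cell normally makes light chain of only 1 kind. The table pools cells and does not show which genes were above 0 in the same cell.

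*Ighm* (chr12:113418558-113422730, minus strand), the constant region of IgM, was above 0 in 98.8% of the cluster and in 65.0% of the other cells. *Ighd* (chr12:113406604-113416324, minus strand), the constant region of IgD, was above 0 in 98.2% and 49.3%, and no other cell type listed it. The coding segments of IgM and IgD follow each other within 16.1 kb and are read from a shared transcript in mature B cells. The constant regions of the switched classes (*Ighg1*, *Ighg2a*, *Ighg2b*, *Ighg2c*, *Ighg3*, *Igha* and *Ighe*) and *Jchain*, the joining chain of secreted IgM and IgA, were in no listing, which leaves their levels unknown. The membrane and secreted forms of *Ighm* could not be separated in these values.

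*Igkc* was also listed for ILC2_2, a cell type of 1.78% of all cells, at 33.8%. Over the types that did not list it the share was 20.7%. *Ighm* was listed for 6 other types, at 96.6% in Macrophage, 91.1% in MMP_LMPP and 52.6% to 67.8% in ILC2_2, gdT_Naive, Treg and CD8_Naive. Only 2.54% of all cells with *Igkc* above 0 lay in the cluster. This figure depends on the size of the cluster and on the 20.9% of the other cells above 0. For *Ighm*, with 65.0% of the other cells above 0, the figure was 0.821%.

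Among receptor and surface proteins, all 19 genes in the table were listed, beside 12.2% of all genes, with a median difference of 53.7 points. *Ms4a1* (chr19:11249675-11266241, minus strand), which encodes CD20, was above 0 in 93.5% of the cluster and in 13.2% of the other cells. *Fcmr*, the receptor for the Fc part of IgM, stood at 97.1% and 18.3%. The signalling chains of the receptor were above 0 in nearly every cell: *Cd79a* (chr7:24897381-24902197, plus strand) in 100% and 27.6%, and *Cd79b* in 98.8% and 28.8%. *Cr2*, the complement receptor CD21, stood at 80.0% and 17.5%. The inhibitory receptor *Cd22* stood at 84.1% and 18.6%, and *Siglecg*, a related sialic acid-binding inhibitor, at 73.5% and 19.8%.

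Receptors for the survival factor BAFF were present at middle shares. *Tnfrsf13c*, the BAFF receptor of mature B cells, was above 0 in 76.5% of the cluster and 31.1% of the other cells, and *Tnfrsf13b* (TACI) in 62.9% and 38.9%. *Tnfrsf17* (BCMA), the receptor on which plasma cells depend, was in no listing. *Cxcr5*, the chemokine receptor that guides B cells into follicles, stood at 75.9% and 42.8%, and *Cd83* at 87.1% and 42.8%. The Fc receptor-like protein *Fcrla*, which is kept inside B cells, stood at 82.4% and 26.5%, with MMP_LMPP at 95.1%. *Cd55*, a regulator of complement, was common everywhere, at 93.5% and 66.5%. *Cd24a* and *Ly6d*, surface proteins that change as B cells mature, were above 0 in 65.9% and 57.6% of the cluster and in 31.8% and 23.9% of the other cells. *Fcgr2b*, the inhibitory Fc receptor, was the only gene of this group that was less frequent in the cluster, at 32.9% against 43.5%, with Macrophage at 96.2% and Basophil at 89.6%.

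**Figure D1:**
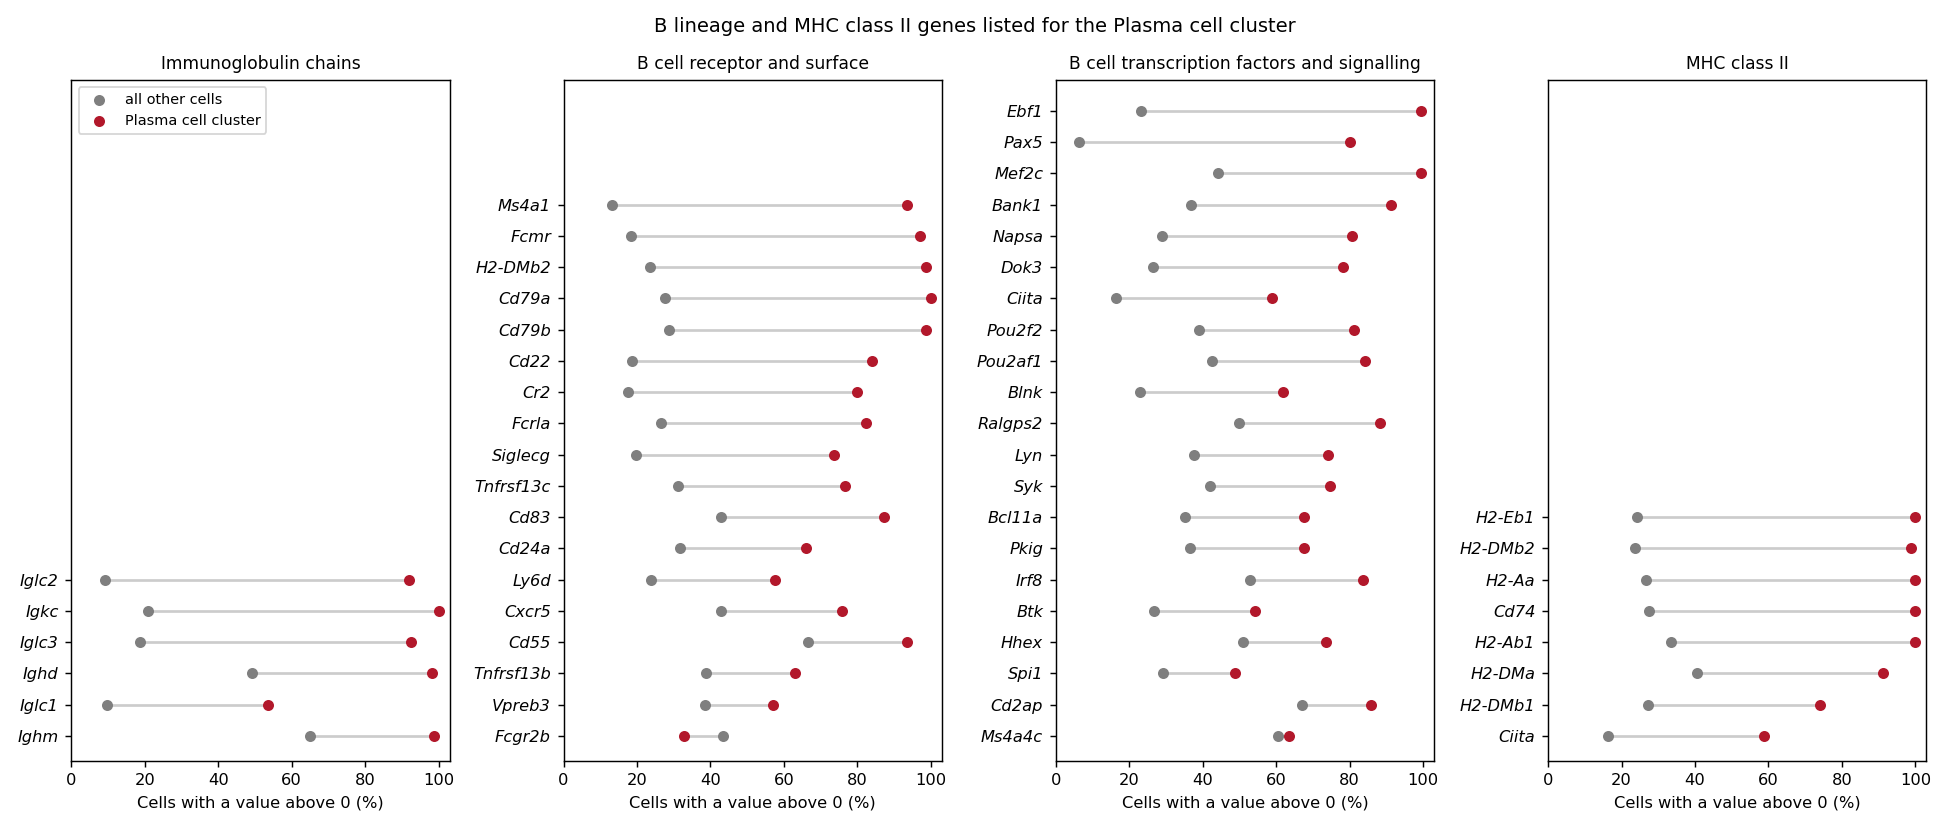
Percentage of cells with a value above 0 (horizontal axis) for the immunoglobulin, B cell and MHC class II genes listed for the cluster, in the cluster (red) and in all other cells (grey), ordered within each panel by the difference; *H2-DMb2* and *Ciita* appear in 2 panels. Red points lie to the right of grey points for every gene drawn except *Fcgr2b* (32.9% against 43.5%), and *Pax5* and *Iglc2* have the lowest shares outside the cluster (6.3% and 9.3%). There are no error bars because the table holds 1 pooled value per gene.

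Transcription factors of the B lineage were listed in the same way. *Pax5* (chr4:44524757-44710487, minus strand), the factor that commits cells to the B lineage and is lost in plasma cells, was above 0 in 80.0% of the cluster and in 6.3% of the other cells. Its ratio of shares, 12.7, was the highest of the 204 genes, and 6.47% of all cells with *Pax5* above 0 lay in the cluster, also the highest. *Ebf1*, which acts with *Pax5*, stood at 99.4% and 23.2%, *Mef2c* at 99.4% and 44.1%, and *Bcl11a* at 67.6% and 35.1%. The octamer factor OCT-2 (*Pou2f2*) was above 0 in 81.2% and 39.0%, and its coactivator OCA-B (*Pou2af1*) in 84.1% and 42.4%. *Spi1* (PU.1), shared with myeloid cells, was lower at 48.8% and 29.3%, below its 97.8% in Macrophage.

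The proteins that carry the receptor signal came next. The adaptors *Bank1* and *Blnk* were above 0 in 91.2% and 61.8% of the cluster, against 36.7% and 23.0% of the other cells. The kinases *Lyn*, *Syk* and *Btk* stood at 74.1%, 74.7% and 54.1% in the cluster and at 37.6%, 42.0% and 26.8% outside. The inhibitory adaptor *Dok3* stood at 78.2% and 26.5%, and *Napsa*, an aspartic protease also made by lung epithelium, at 80.6% and 28.9%, below its 95.2% in Basophil. *Ralgps2* was above 0 in 88.2% and 49.8%, *Pkig* in 67.6% and 36.6%, and *Cd2ap* in 85.9% and 66.9%. *Ms4a4c*, a relative of *Ms4a1*, hardly differed, at 63.5% and 60.4%. The factor *Hhex* was above 0 in 73.5% of the cluster and 50.9% of the other cells, below MMP_LMPP at 93.5%. Of the 23 genes of this list in the table, 21 were listed for the cluster, beside 12.2% of all genes. *Blk*, a kinase of B cells and some gamma delta T cells, was listed elsewhere with its highest share in gdT_TypeIII_CD163l1 (90.0%), and *Spib* with its highest share in Macrophage (88.3%).

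In the B lineage lists, 11 of the 46 genes were listed for this cell type alone, among them *Iglc2*, *Iglc1*, *Ighd*, *Ms4a1*, *Fcmr*, *Cd22*, *Cr2*, *Pax5*, *Bank1* and *Pou2af1*. Another 14 were listed for other types as well but had their highest share here, among them *Igkc*, *Cd79a*, *Cd79b* and *Ebf1*. Over all 204 genes, 18 were listed for this type alone and 41 more had their highest share here. The remaining 21 B lineage genes had a higher share in another type, mostly MMP_LMPP or Macrophage. For example, *Vpreb3* was above 0 in 57.1% of the cluster and 95.9% of MMP_LMPP, and *Blnk* in 61.8% of the cluster and 85.5% of Macrophage.

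Of the MHC class II genes, 6 of 8 were above 0 in over 90% of the cluster. All 8 class II genes in the table were listed, beside 12.2% of all genes, with a median difference of 69.5 points. The alpha and beta chains that bind peptide, *H2-Aa* (chr17:34282744-34287823, minus strand), *H2-Ab1* and *H2-Eb1*, and the invariant chain *Cd74*, which guards the peptide groove, were each above 0 in 100% of the cluster. Outside it they were above 0 in 26.7%, 33.4%, 24.3% and 27.6%. The peptide exchange factor H2-DM was encoded by *H2-DMa* (91.2% and 40.6%), *H2-DMb1* (74.1% and 27.2%) and *H2-DMb2* (98.8% and 23.6%). *Ciita*, the transactivator that switches class II genes on, stood at 58.8% and 16.4%. Macrophage listed all 8 of these genes and MMP_LMPP listed 5, with *H2-Aa* at 88.2% and 87.8%. For 7 of the 8 genes the share was highest in the cluster, and *H2-DMb1* was higher in Macrophage (78.9%).

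The 6 class II genes with names in the H2 series lie within 197.1 kb of chr17. Their promoters share elements called the X box and the Y box, the latter an inverted CCAAT box, through which CIITA acts. The 150 bases before the start of 4 of them are shown because these members were listed together and share those elements: *H2-Aa* (chr17:34287824-34287973, minus strand), *H2-Eb1* (chr17:34305717-34305866, plus strand), *H2-DMb1* (chr17:34153041-34153190, plus strand) and *H2-DMb2* (chr17:34145099-34145248, plus strand), from RefSeq on GRCm38.p6. Capitals mark GATTGG or its reverse complement CCAATC, and GATGATGCT, each searched on both strands.
H2-Aa: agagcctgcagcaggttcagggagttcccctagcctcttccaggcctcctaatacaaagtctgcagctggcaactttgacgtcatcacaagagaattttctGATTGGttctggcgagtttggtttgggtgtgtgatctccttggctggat
H2-Eb1: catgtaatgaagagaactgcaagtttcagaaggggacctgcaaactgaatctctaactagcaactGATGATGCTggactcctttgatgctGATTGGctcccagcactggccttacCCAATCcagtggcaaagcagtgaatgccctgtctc
H2-DMb1: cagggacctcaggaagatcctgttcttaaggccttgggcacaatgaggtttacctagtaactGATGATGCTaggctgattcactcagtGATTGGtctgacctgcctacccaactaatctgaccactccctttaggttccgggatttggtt
H2-DMb2: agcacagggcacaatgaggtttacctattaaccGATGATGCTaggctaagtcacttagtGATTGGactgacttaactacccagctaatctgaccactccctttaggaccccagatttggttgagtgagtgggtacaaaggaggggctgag

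GATTGG began 49 bases before the gene start in *H2-Aa*, 60 in *H2-Eb1*, 62 in *H2-DMb1* and 91 in *H2-DMb2*. GATGATGCT lay upstream of it in 3 of the 4, beginning at 85, 88 and 117 bases before the start in *H2-Eb1*, *H2-DMb1* and *H2-DMb2*. In windows of 300 bases, from 250 before to 50 after the start, GATTGG or CCAATC was present for 5 of 5 listed class II genes that had a promoter in the RefSeq table, in *H2-DMa* at 199 bases and in 1 of its windows only. The same letters were present for 18.2% of 27025 genes, for 23.4% of the 145 genes of the cluster with a promoter and for 17.2% of 29 B lineage genes. GATGATGCT was present for 3 of the 5 class II genes, for 2 of the 29 B lineage genes (*H2-DMb2*, which is also a class II gene, and *Tnfrsf13c*) and for 0.318% of all genes. The octamer ATGCAAAT, which OCT-2 binds, was present for 3 of the 29 (*Blnk*, *Ms4a4c* and *Vpreb3*) and for 1.97% of all genes. GATTGG and GATGATGCT were chosen after the sequences were read. A match describes letters in a window and is not evidence of binding.

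Of the 9 plasma cell genes listed (34.6% of 26, beside 12.2% of all genes), 8 were shared with other types and 5 of these had a higher share in another type. Over the whole list, 145 of the 186 shared genes had an equal or higher share in another type, with *Ftl1* and *H3f3b* equal at 100%. *Mzb1*, a chaperone of immunoglobulin assembly that marginal zone B cells also use, was above 0 in 91.8% of the cluster and in 18.8% of the other cells, with MMP_LMPP at 78.0% and Macrophage at 54.5%. *Xbp1*, the factor that enlarges the secretory apparatus, stood at 65.9% and 53.5%, below Basophil (83.6%), Macrophage (75.6%) and ILC2_2 (68.7%). *Ell2*, an elongation factor that favours secreted immunoglobulin transcripts, stood at 62.4% and 48.9%, below Basophil (89.0%) and Macrophage (88.1%). *Irf4* was above 0 in 16.5% of the cluster, the lowest share of all 204 genes, and in 32.5% of the other cells, against 98.4% in MMP_LMPP and 36.4% in Treg. Its average was nevertheless listed as higher in the cluster than in the other cells.

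Of the secretory apparatus, 4 of 14 genes in the table (28.6%) were listed, beside 12.2% of all genes. *Ckap4*, a sheet-forming protein of the endoplasmic reticulum, was above 0 in 57.6% and 31.1%, and *Edem1*, which directs misfolded glycoproteins to degradation, in 66.5% and 43.1%. The disulfide isomerase relatives *Txndc5* and *Txndc11* were each above 0 in 70.0% of the cluster and in 45.2% and 51.8% of the other cells. The other 10 were listed only for other types, among them the chaperones *Hspa5*, *Hsp90b1*, *Calr* and *Manf*. *Hspa5* and *Hsp90b1* were each above 0 in 99.8% of the type the study spelled Prolifelation cell.

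*Sdc1* was listed for Endothelium cell (80.9%) and other types but not for the cluster. Among the types that listed *Prdm1* the highest share was in NK (50.3%). *Slamf7*, a surface protein of plasma cells and cytotoxic lymphocytes, had its highest share in ILC1 (58.9%). Where a gene was not listed for the cluster, its share there is unknown. Over all types without a listing the share was 32.8% for *Sdc1* and 37.3% for *Prdm1*, but the cluster was too small a part of these cells for such a mean to describe it.

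**Figure D2:**
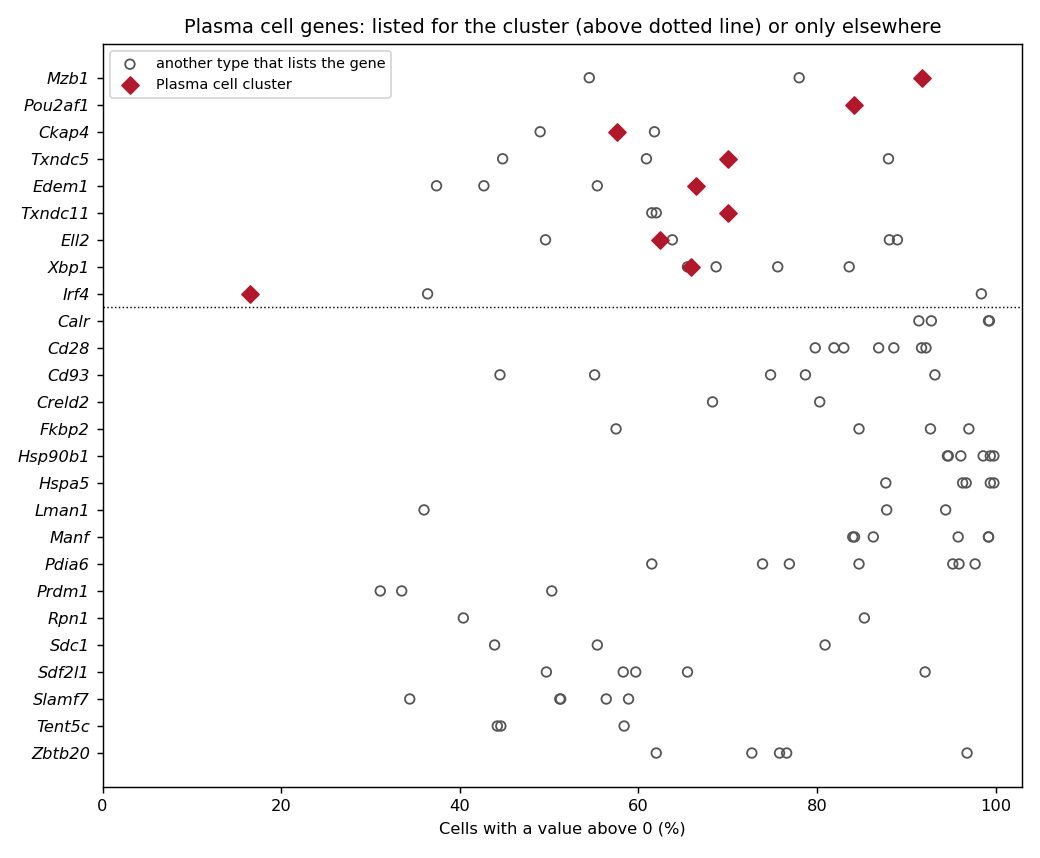
Percentage of cells with a value above 0 (horizontal axis) for the 26 genes of the plasma cell lists found in the table, in the cluster (red diamonds, 9 genes above the dotted line) and in each other type that listed the gene (open circles). *Mzb1* (91.8%) and *Pou2af1* (84.1%) have the highest shares in the cluster, *Irf4* (16.5%) the lowest, and the 17 genes below the line have no value for the cluster.

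Across all 204 genes, the median share was 73.5% in the cluster and 43.8% in the other cells. In the cluster 39 genes were above 0 in at least 90% of cells and 9 in 100%. The difference was at least 50 points for 27 genes, at least 20 points for 112 and under 10 points for 45, the last including 10 genes with a lower share in the cluster than outside it. These 10 genes, among them *Irf4*, *Fcgr2b*, *Cxxc5* and *Egr3*, were still listed with a higher average expression in the cluster. The largest difference belonged to *Scd1* (chr19:44394455-44407879, minus strand), a desaturase of fatty acid synthesis, at 95.9% and 11.9%. It was followed by *Iglc2*, *Ms4a1*, *Igkc*, *Fcmr*, *Ebf1*, *H2-Eb1*, *H2-DMb2*, *Pax5*, *Iglc3*, *H2-Aa* and *Mzb1*, down to 73.0 points. Of these 12 genes, 11 belonged to the B lineage, class II or plasma cell lists and *Scd1* to none. At the other end stood *Egr3*, an immediate early factor, at 28.8% and 50.0%, *Cxxc5* at 37.1% and 55.5%, and *Irf4*.

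**Figure D3:**
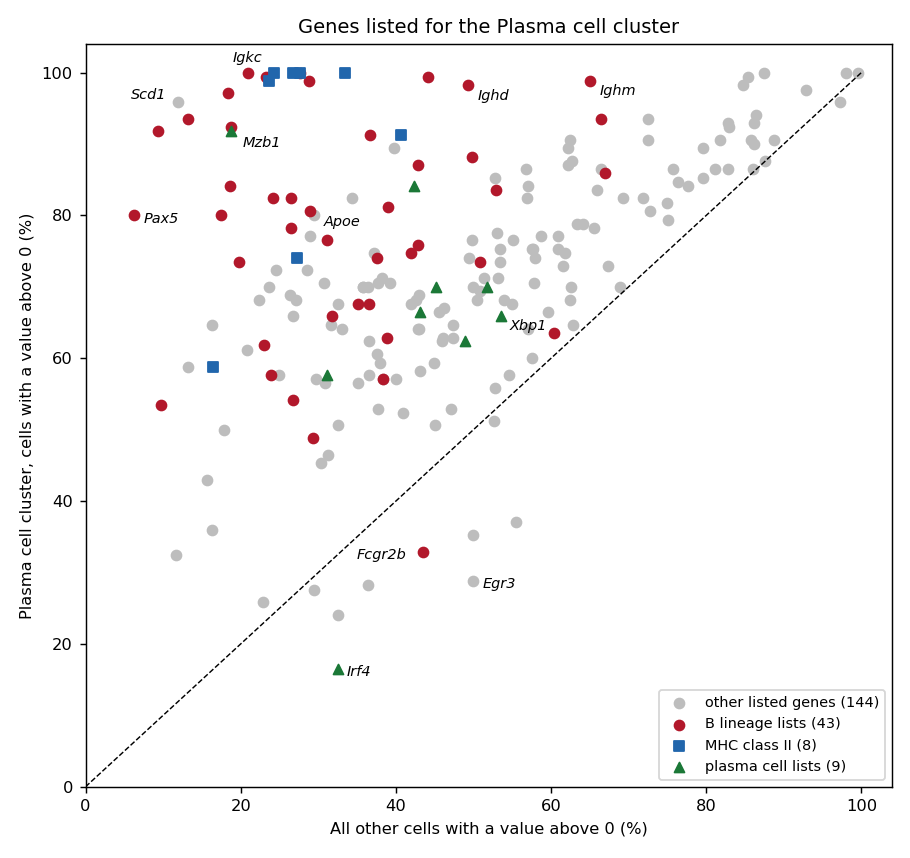
Each point is 1 of the 204 genes, with the percentage of all other cells above 0 on the horizontal axis and the percentage of the cluster above 0 on the vertical axis; the dashed line marks equal shares. The upper left holds *Igkc*, *Pax5* and class II genes (blue) among others, *Ighd* and *Ighm* (red, B lineage lists) lie farther right, *Fcgr2b* lies below the line, and 10 genes including *Irf4* (green, plasma cell lists) and *Egr3* lie below it in all.

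*Apoe* (chr7:19696109-19699188, minus strand), an apolipoprotein that carries lipid, was above 0 in 80.0% of the cluster and in 29.5% of the other cells. It was also listed for Macrophage at 75.4% and for Basophil at 28.1%. Of all cells with *Apoe* above 0, 1.46% lay in the cluster, less than for *Igkc* (2.54%) or *Ms4a1* (3.71%). *Scd1* was listed for the cluster alone and 4.20% of the cells with *Scd1* above 0 lay there.

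B cell subsets were looked for with shorter lists, whose counts are to be read beside the 12.2% of all genes listed for the cluster, and which hold few genes. For germinal centre and activated B cells, 2 of 4 genes in the table were listed, *Cd86* at 59.4% and 37.9% and *Myc* at 62.4% and 46.0%, while *Mki67*, a marker of dividing cells, was listed elsewhere. For B-1 and marginal zone B cells, 3 of 12 were listed: *Cr2*, *Apoe*, and *Plac8* at 57.1% and 38.4%. *Cd5*, a marker of B-1a cells, had its highest share in Treg (77.3%) and *Cd9* in Basophil (99.7%), and neither was listed for the cluster. Of early B cell progenitor genes, 0 of 5 were listed, and *Vpreb1*, the surrogate light chain, had its highest share in MMP_LMPP (89.4%).

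Markers of the other cells in the sort were mostly missing from the cluster's list, which held 12.2% of all genes in the table. None of 19 T cell genes, 16 genes of NK cells and ILC1s, 12 of basophils and mast cells, and 22 of proliferation were listed. The cluster's list did hold other genes of the cell cycle, named after their values were seen: *Cdc25b* (70.6% and 39.2%), *Pmf1* (70.6% and 37.7%), *Kif20b* (64.7% and 31.6%), *Cdt1* (62.9% and 46.1%) and *Cenpa* (67.6% and 55.0%). Prolifelation cell shared 29 of the 204 genes (14.2%). These were 5.65% of its own long list of 513 genes, below the 12.2% of all genes. Of 16 ILC2 genes 1 was listed, *Hs3st1* at 75.3% and 57.7%. The gate genes *Thy1* and *Il1rl1* (ST2) were not listed for the cluster and *Il7r* (CD127) and *Ptprc* (the gene of CD45R) were in no listing of this table, so these values do not show whether the cells met the gate.

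Of 15 genes of monocytes, macrophages and dendritic cells, 3 (20%, beside 12.2% of all genes) were listed for the cluster: *Apoe*, the protease *Ctss* (82.4% and 56.9%) and the protease inhibitor *Cst3* (98.2% and 84.8%). *Lyz2*, a defining macrophage gene, was not among them and was above 0 in 98.5% of Macrophage. *C1qa* and *Csf1r* were in no listing. Of 13 genes of plasmacytoid dendritic cells, 4 (30.8%) were listed: *Ly6d* (57.6% and 23.9%), *Irf8* (83.5% and 52.9%), *Pld4* (56.5% and 30.9%) and *Tcf4* (71.2% and 51.3%). *Bst2* and *Ccr9* had their highest shares in Macrophage, at 97.9% and 93.3%, and *Siglech* was in no listing. The type named Macrophage listed 13 of these 13 genes and 11 of the 15 genes of monocytes, macrophages and dendritic cells, beside 17.3% of all genes, and its name was used here as given. Of 7 endothelial genes, *Pecam1* was listed at 52.9% and 47.1%. Of 3 hepatocyte genes *Apoe* was listed, and of 1 lung epithelial gene none. Of 18 stress and immediate early genes, *Klf2* (99.4% and 85.4%) and *Zfp36* (90.6% and 72.5%) were listed, which is 11.1%. The part of such cells in the shares of the cluster was not tested.

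Of the 204 genes, 18 (8.82%) were listed for the cluster alone and 186 for at least 1 other type. In 41 of the 186 the cluster had the highest share among the types that listed the gene. MMP_LMPP, the smallest type but with a long list of 403 genes, shared 86 genes (42.2% of the cluster's list and 21.3% of its own), and Macrophage shared 78 (38.2% and 26.8%). As a share of the other type's list, gdT_Naive (24.8%), CD4 (22.1%) and CD8_Naive (21.7%) lay between these. Shares of the other type's list stand beside the 12.2% of all genes that were listed for the cluster. The label MMP_LMPP was not expanded in the sources used here. ILC2, the type that held 43.2% of the cells, shared 6 genes (2.94% and 4.41%).

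The 3 groups of genes were distributed differently over the types. MMP_LMPP listed 23 of the B lineage genes and 5 class II genes, and Macrophage listed 21 and 8, against 46 and 8 in the cluster. As a share of each type's own list, B lineage genes were 22.5% in the cluster, 5.71% in MMP_LMPP and 7.22% in Macrophage, and class II genes were 3.92%, 1.24% and 2.75%. For the plasma cell lists the cluster, with 9 genes, stood beside ILC2_2 with 10, MMP_LMPP and Prolifelation cell with 9 each, and Macrophage with 8. These types have lists of different length. As a share of its own list the plasma cell genes were 4.41% in the cluster, 5.00% in ILC2_2, 4.58% in ILC3, 2.75% in Macrophage, 2.23% in MMP_LMPP and 1.75% in Prolifelation cell. Beside these shares, 48 of all 1679 genes in the table were in the B lineage lists, 8 in the class II list and 26 in the plasma cell lists.

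**Figure D4:**
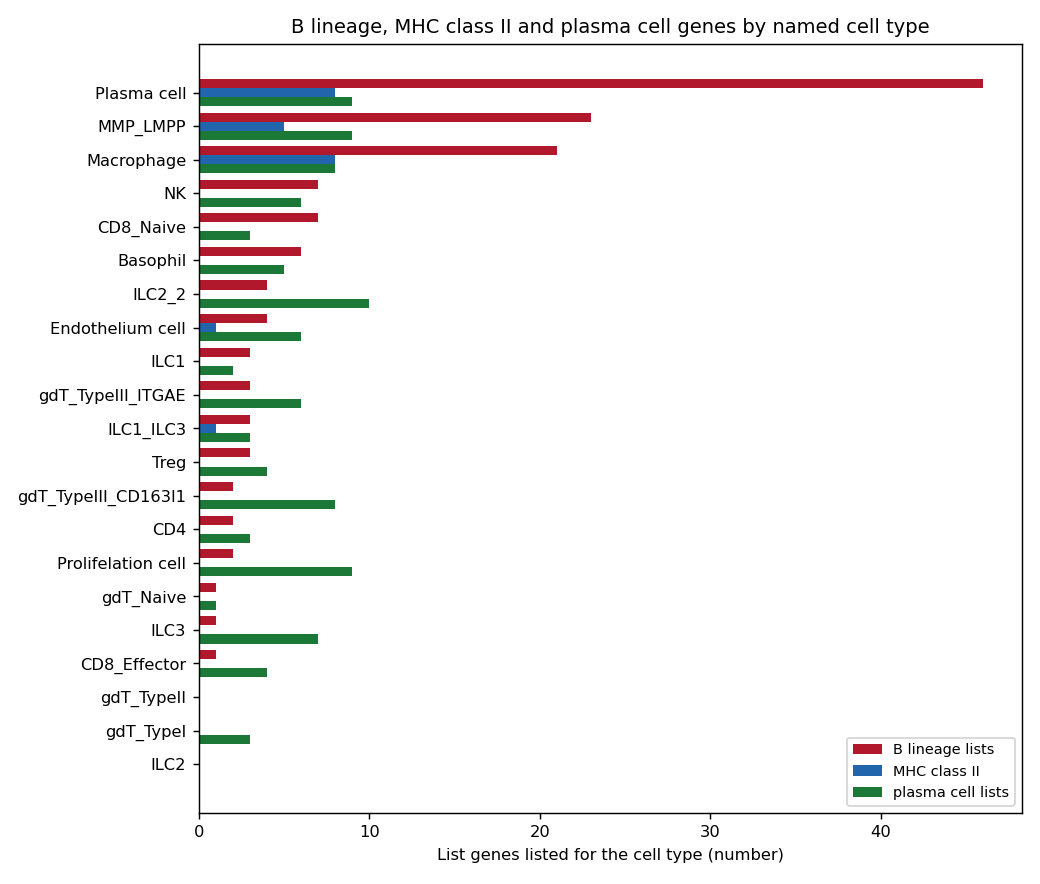
Number of list genes (horizontal axis) that were listed for each of the 21 cell types, for the B lineage lists (red), MHC class II (blue) and both plasma cell lists (green). The cluster has the longest red bar (46 genes), ahead of MMP_LMPP (23) and Macrophage (21), whereas its green bar (9) is matched or exceeded by MMP_LMPP (9), Prolifelation cell (9) and ILC2_2 (10).

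In a separate table the study divided the ILC2s into 10 subclusters, counted from 0, and set each against the rest. Of the 204 genes, 83 were among its 2629 genes. Only 4 of the 46 B lineage genes were there (*Cd2ap*, *Cd79b*, *Napsa* and *Pou2f2*), with 2 of the 8 class II genes and 4 of the 9 plasma cell genes. *Cd79b* was above 0 in 38.7% of subcluster 1 and in 19.9% of the other ILC2s. *H2-Ab1* stood at 42.1% in subcluster 4 and 22.1% in the others. *Xbp1* was listed for subcluster 5 at 12.7%, below the 33.7% of the others. *Igkc*, *Ms4a1*, *Pax5* and *Ighm* were in none of its listings. The 2 tables may rest on different matrices, and their shares were not compared.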

How the data were processed

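Libraries were made by the authors with the 10x 3′ v3.1 kit from sorted liver and lung cells, aligned to mm10 with Cell Ranger, and clustered in Seurat after cells with few genes were excluded. Flow cytometry was used to leave out doublets and dead cells, and no computational doublet caller was described. The 2 tables used here are marker lists. The fraction of cells above 0, inside a cluster and in all other cells, was deposited by the authors to 3 decimals and is printed as a percentage. The deposited log2 fold changes compare average expression in a cluster with all other cells, and the deposited p-values and adjusted p-values come from the authors' test over cells. These 3 kinds of value were not used as results. They show that every listing had a log2 fold change of at least 0.25, that the largest raw p-value was 0.00947, and that the adjustment multiplied each p-value by 2000. The higher share of a listed pair was never below 25.2%. A gene with no listing may be lower, too rare or not among the features tested.

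Cluster sizes were solved by linear least squares. The share of a gene in all cells must come out the same whichever type lists it. The fit used 1045 genes listed for at least 2 types (3788 pairs), and its residual root mean square was 0.000275 as a share. Tested on simulated data over 1679 genes, the largest error was 0.0161 percentage points, and 0.00148 for this cluster. Positions came from GENCODE M21, which matched all 204 genes, and promoters from RefSeq (GRCm38.p6), which held 145 of them. Analyses used Python 3.11.15, numpy 2.4.6 and pandas 2.3.3, with figures from matplotlib 3.10.9.

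Groups came from the labels, with 1 library each. The tables give neither depth nor a number of cells, so no interval was computed for a share. The members and the gene lists were chosen with earlier results of these data known. Named genes were, apart from genes not reported here, all listed genes of the immunoglobulin, B cell, class II and plasma cell lists, the 12 with the largest and the 3 with the lowest difference, *Igkc*, *Ms4a1* and *Apoe*, and up to 3 for each list of another cell type. Members of the lists without a listing for the cluster, such as *Sdc1*, were named after the values were seen. Alternatives required a difference of at least 10 points, a higher share inside than outside, or at least 50% of cells above 0 in the cluster.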

Additional observations from a re-analysis of the deposited data

How the results depend on the processing

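No paired analysis was possible because the 4 libraries were pooled in the tables, and no group had a second library. The list of 204 genes became 159 when a difference of at least 10 points was required, 193 when the share had to be higher inside than outside, and 189 when at least 50% of the cluster had to be above 0. The B lineage genes went from 46 to 44, 45 and 44, the plasma cell genes from 9 to 8 under each, and the 8 class II genes stayed at 8. The size of the cluster ranged from 0.540% to 0.547% over its alternatives. No count moved by more than 1.5 times. The tables hold no number of cells, so the counting error of each share, which is larger in a small cluster, is not given.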

Other observations

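Among the 204 genes, 4 further groups were formed after their values were seen, so they carry no test. Of all 204 genes, 193 had a higher share in the cluster than outside and 78 (38.2%) were also listed for Macrophage. The 8 genes of antigen uptake and lysosomal processing had differences of 25.5 to 49.7 points, and Macrophage also listed 7 of them. They included *Ifi30*, the thiol reductase that unfolds antigens for class II loading (89.4% of the cluster and 39.7% of the other cells), the proteases *Ctsh* (77.1% and 28.9%) and *Ctsz* (89.4% and 62.2%), and *March1*, a ligase that removes class II from the surface (68.2% and 22.3%). *Cd180* and *Ly86*, which form a receptor complex of B cells and other antigen-presenting cells, stood at 42.9% and 15.7% and at 68.8% and 26.4%. Of 4 lipid genes, *Scd1* and *Apoe* differed by over 50 points, the cholesterol exporter *Abcg1* stood at 76.5% and 49.8%, and its relative *Abca1* at 55.9% and 52.8%.

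None of 6 genes of lymphoid homing and tissue exit, picked in the same way, was among the 38.2% listed for Macrophage. *Ccr7*, which guides lymphocytes to T cell zones, was above 0 in 93.5% of the cluster and 72.5% of the other cells. The share of *Cxcr4* was 94.1% and 86.4%, and that of *S1pr1*, needed to leave tissue, 70.0% and 68.9%. Of 8 activation and feedback genes the differences ran from -21.2 points for *Egr3* to 44.3 points for *Cd83*, with *Cd69* at 92.9% and 86.2% and *Rel* at 90.6% and 62.4%.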
